A study of Macaca mulatta with 26 samples.

Results

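A pair of rhesus monkey muscle libraries was sequenced far more deeply than the rest of the series, to approximately 100M reads each, and its circular RNAs (circRNAs) are compared here. One was from a newborn monkey aged 0.005 years and the other from an old monkey aged 40.1 years, with 1 library a side and no replicate at this depth. Both were vastus lateralis, a thigh muscle, from animals kept on a normal diet, and the total RNA had been digested with RNase R, an exonuclease that removes linear RNA and spares circles. The other 24 libraries, 1 per monkey, held approximately 20M reads each, and newborn 1 (0.005 years) and old 2 (40.1 years) among them had the ages of the in-depth pair. The sample descriptions present the in-depth libraries as a later, deeper sequencing of 2 of these samples, whereas the study's results speak of additional samples. By the ages in the labels the 24 were split into 3 newborn (0.003 to 0.03 years), 3 juvenile (2.8 to 6 years), 11 middle-aged (11.3 to 16.93 years) and 7 old animals (25.7 to 40.9 years). The study's own young class holds the newborn and the juvenile animals together.

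CircRNAs form when a splice donor is joined back to an acceptor that lies upstream of it, and they are recognized in sequencing by the reads that cross this back-splice junction. Most consist of exons, and a smaller class, the circular intronic RNAs (ciRNAs), comes from intron lariats that escape debranching. Because they have no ends, circRNAs resist exonucleases, are often long-lived, and have been found to accumulate with age in several tissues, mainly of the nervous system. What was counted here is the number of reads on each back-splice junction, and a level is given as the share of all junction reads of a library.

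The in-depth newborn library held 60704 junction reads on 11947 distinct junctions, and the in-depth old library 35205 reads on 8520 junctions. With the newborn library reduced to 35205 reads, the expected number of distinct junctions was 9092, so most of the difference in number followed the difference in reads. The 2 libraries together listed 16568 of the 27419 junctions of the whole series, and 3899 of them were in both. Compared here are the 1307 junctions with 10 or more reads in either library, 7.89% of the 16568. They carried 61.3% of the junction reads of the newborn library and 59.6% of those of the old library, and 1274 of them were exonic and 33 intronic. Just inside the limit were 143 junctions whose higher count was 10 reads, and just outside were 180 with 9. A count of 3 reads, taken as the smallest count that shows a junction, corresponds to 0.00494% of the newborn and 0.00852% of the old library, against 0.0259% to 0.365% in the other libraries.

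A count of 0 needs care in these data, because the list of a library holds called junctions only, and a junction that is not listed may still have been present. The same-age libraries show how often this occurred, and its cause was not tested. At the share seen in the in-depth newborn library, 50 of the junctions should have given 10 or more reads in newborn 1, yet 9 of them (18%) were not listed there at all. One of the 9 would have been expected at 83.9 reads. In old 2 the same held for 5 of 32 junctions (15.6%). Between the in-depth libraries, 52 of 550 junctions (9.45%) with 10 or more expected reads were not listed in the old library. In the newborn library 60 of 841 (7.13%) were not listed. Of the 841, those with fewer than 10 reads in the old library were compared only because the newborn library had 10 or more. Such junctions could not be missing from the newborn library, so the 7.13% is too low and cannot be set against the 9.45%. Junctions listed in both libraries and junctions listed in only 1 are therefore kept apart below, and a 0 is called "not listed".

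Most junctions listed in both libraries had shares within 2-fold of each other. Of the 1307, 1080 were listed in both libraries, 167 in the newborn library only and 60 in the old library only. The ratio of the newborn to the old share had a median of 1.16 over the 1080, with quartiles of 0.725 and 1.88, and 682 of them (63.1%) lay within 2-fold. The newborn share was higher for 637 and the old share for 443. A junction was called higher in one library where the exact 95% interval of the ratio, which covers counting error only, lay wholly past 2-fold. By this rule 92 junctions, 7.04% of those compared, were higher in the newborn library and 103 junctions, 7.88%, in the old library. Among junctions listed in both, the numbers were 15 (1.39%) and 43 (3.98%), so that 77 of the 92 and 60 of the 103 had no listed read on the other side. The 10-read minimum and the unequal read totals made the rule uneven. With none listed opposite, 10 reads in the old library gave a lower bound of 3.87, whereas 12 in the newborn library gave 1.61. All 60 old-only junctions were thus called, against 77 of the 167 newborn-only ones, so the counts of the 2 sides are not comparable. With 1 library per age these are differences between 2 libraries, and no p-value is given.

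**Figure D1:**
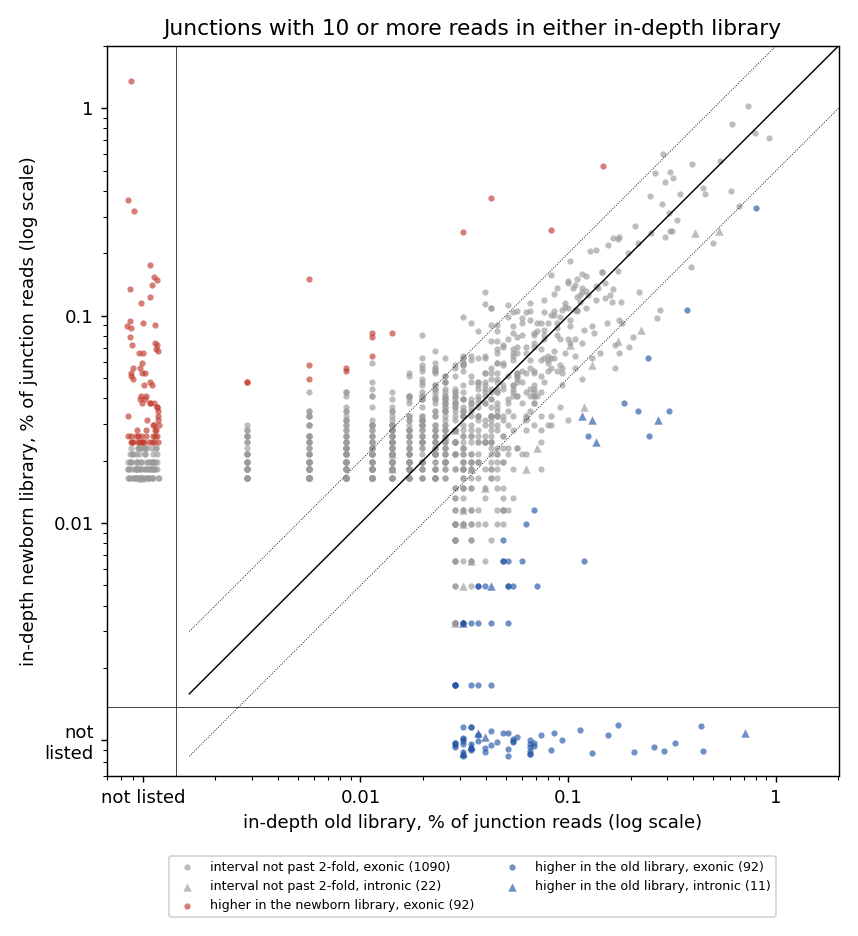
Share of junction reads in the in-depth old library (x axis, percent, log scale) and in the in-depth newborn library (y axis, percent, log scale) for the 1307 junctions, with junctions not listed in a library placed in the margin strip and spread at random there. The solid line marks equal shares and the dotted lines 2-fold. Of the 92 junctions higher in the newborn library (red) 77 lie in the left strip, and of the 103 higher in the old library (blue) 60 lie in the bottom strip, while triangles mark intronic circRNAs.

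Of the 15 junctions that were listed in both libraries and higher in the newborn library, the one with the highest lower bound of its ratio came from MYL2, which encodes the regulatory myosin light chain of slow muscle fibres. This circle of 2 exons (mmu_circ_003019, chr11:111847211-111848921, minus strand, rheMac2) had 91 reads in the newborn and 2 reads in the old library, a ratio of 26.4 (95% interval 7.10 to 221). In the libraries of about 20M reads it had 10, 13 and 1 reads in newborn 1 to 3, and in the 7 old libraries 0 to 2 reads. By share the groups overlapped, since the 2 reads of old 7, a library of 1317 junction reads, put it between newborn 3 and newborn 1. A circle of 7 exons (mmu_circ_004276, chr12:30108128-30136429, minus strand) had 225 against 15 reads, a ratio of 8.70 (5.16 to 15.8). It had 29, 35 and 9 reads in newborn 1 to 3, and in the old libraries it was listed only in old 3, old 4 and old 7, with 3, 25 and 2 reads, so that old 4 reached the newborn level. A circle of 3 exons (mmu_circ_003723, chr11:55045847-55050896, plus strand) had 153 against 11 reads, a ratio of 8.07 (4.38 to 16.5). In the newborn libraries it had 22, 32 and 12 reads and in the old libraries 0 to 18, with mean shares of 0.407% in newborn 2 and 3 and 0.122% in the 6 old animals other than old 2.

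A locus on chromosome 4 (plus strand) held several newborn-higher circles that shared their first exon. The junction chr4:53822249-53875750 (mmu_circ_014028, 7 exons) had 320 reads in the newborn and 52 in the old library, a ratio of 3.57 (2.66 to 4.88). Its longer form chr4:53822249-53917409 (mmu_circ_014029, 8 exons) had 50 against 4 reads, a ratio of 7.25 (2.66 to 27.6). Its shorter form chr4:53822249-53842943 (5 exons) had 364 against 101, a ratio of 2.09 (1.67 to 2.63) that was not wholly past 2-fold. Of the 24 libraries of about 20M reads only old 2 and old 4 listed this shorter form, with 9 and 22 reads, and no newborn library did. The form of 6 exons, chr4:53822249-53863447, had 194 reads in the newborn library and was listed nowhere else in the series, the same-age library included. A circle of the same locus with another first exon, chr4:53842899-53917409, was not higher in the newborn library, with 47 against 32 reads and a ratio of 0.852 (0.532 to 1.38). Over the 9 junctions of the locus, chr4:53822249-53917409, the sums were 995 and 199 reads, a ratio of 2.90 (2.49 to 3.39). The newborn sum includes the forms of 5 and 6 exons, with 364 and 194 reads, which newborn 1 did not list. In newborn 2 and 3 the locus held 1.08% of junction reads on average. The other 6 old animals had 0.440% on average, and in 2 of them the locus was not listed.

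LARP4, which encodes an RNA-binding protein that acts on mRNA stability and translation, was the host of a circle of 6 exons (chr11:47582687-47608537) with 50 reads in the newborn and 5 in the old library, a ratio of 5.80 (2.33 to 18.6). It had few reads elsewhere, with 3, 0 and 1 in newborn 1 to 3 and 0 or 1 in each old library, and its log2 fold change in the other animals was 0.52 ± 1.72 (adjusted p = 1.00, edgeR). Of the other LARP4 circles compared, chr11:47600998-47608537 had 25 against 14 reads, a ratio of 1.04 (0.518 to 2.16). The circle chr11:47571779-47574981 had 12 against 5, a ratio of 1.39 (0.456 to 5.04), and neither was called. The remaining newborn-higher junctions listed in both libraries had 29 to 157 reads in the newborn and 1 to 29 reads in the old library. One of them, chr15:25205854-25207331, had 157 against 29 reads and 24 reads in newborn 1 but was listed in no other newborn or old library, so that the other animals give no value for it.

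The 43 junctions listed in both libraries and higher in the old library included an intronic circle of STAC3. STAC3 encodes an adaptor of excitation-contraction coupling in muscle, and this circle (chr11:54312400-54312546) had 2 against 11 reads, an old to newborn ratio of 9.48 (2.07 to 88.1). With DESeq2 size factors in place of total junction reads the lower bound was 1.80, so that the STAC3 call was lost. In the libraries of about 20M reads this circle had 0, 0 and 0 reads in newborn 1 to 3 and 3, 0, 0, 0, 3, 0 and 0 in old 1 to 7. The intronic junction starting 1 nt away, chr11:54312401-54312546, had 2 against 10 reads and was not called. The exonic STAC3 circle chr11:54316231-54318728 had 10 against 4 reads, a newborn to old ratio of 1.45 (0.418 to 6.33), and was not called.

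Among these 43 junctions, the one with the highest lower bound lay in a cluster of circles on chromosome 6 (minus strand). The circle chr6:130724321-130743416 (6 exons) had 4 reads in the newborn and 42 in the old library, an old to newborn ratio of 18.1 (6.57 to 69.5), and chr6:130728400-130743416 (mmu_circ_015376, 5 exons) had 21 against 76, a ratio of 6.24 (3.81 to 10.7). At this locus 5 of the 6 circles compared were called, and over the 15 junctions of the locus chr6:130724321-130785373 the sums were 49 and 195 reads, a ratio of 6.86 (4.99 to 9.59). In the other animals the locus had mean shares of 0.191% in newborn and 0.299% in old libraries, a much smaller gap. A circle of 1 exon (mmu_circ_019458, chr9:69124976-69125878, minus strand) had 16 against 86 reads, a ratio of 9.27 (5.39 to 16.9). It had 3, 4 and 0 reads in newborn 1 to 3 and 16, 13, 3, 5, 17, 15 and 3 reads in old 1 to 7, and mean shares of 0.0253% and 0.223% in the newborn and old animals not sequenced in depth. The juvenile libraries, with 3, 15 and 47 reads, were not at the newborn level, and 2 of them lay above every old library by share. A circle of 6 exons (mmu_circ_006362, chr14:24950336-24956328, plus strand) had 21 against 108 reads, a ratio of 8.87 (5.52 to 14.9), whereas the other animals had mean shares of 0.121% and 0.156%.

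**Figure D2:**
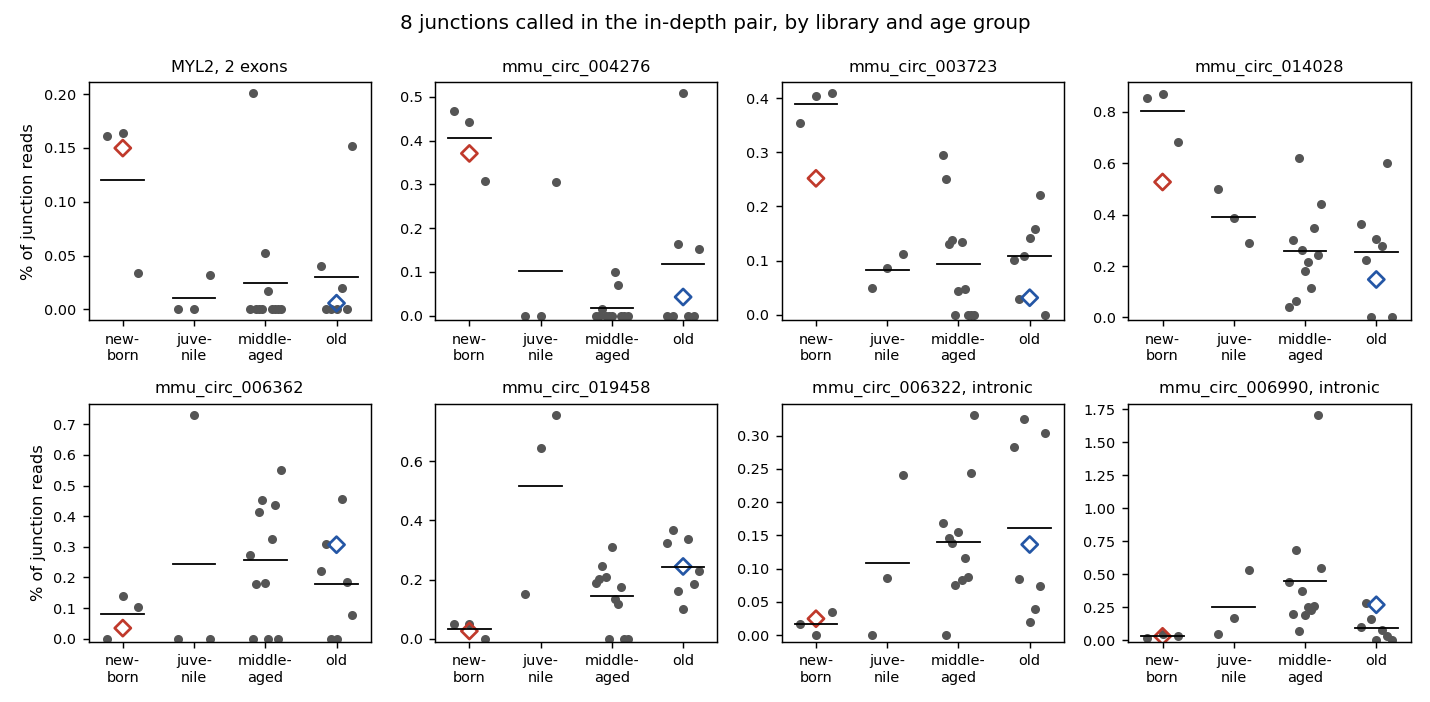
Share of junction reads (percent, y axis) of 8 junctions listed in both in-depth libraries, by age group (x axis). Grey points are the 24 libraries of about 20M reads, horizontal lines their group means, and open diamonds the in-depth newborn (red) and old (blue) library. The 4 junctions of the upper row were called higher in the newborn and the 4 of the lower row higher in the old library; for mmu_circ_006990 the old libraries other than that of the same age lie below the in-depth old library, and some middle-aged libraries lie above it.

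The junctions with the most extreme bounds were all listed in 1 library only, and several of them were missing from the same-age library or present in libraries of the opposite age. The most abundant junction of the in-depth newborn library, chr19:43465501-43466048 (mmu_circ_010109, 2 exons, plus strand), had 821 reads there, 1.35% of all, and was not listed in the old library. It was also not listed in newborn 1, of the same age, and of the 24 libraries only newborn 2 had it, with 51 reads. The junction chr14:38535929-38537027 (mmu_circ_006449, 1 exon) had 220 reads in the newborn library and none listed in the old. It had 33, 0 and 0 reads in newborn 1 to 3, and 6 in old 4, the only old library that listed it. The junction chr14:105577272-105585481 (mmu_circ_006028, 2 exons) had 93 reads in the newborn library and none listed in the old. It had 11, 31 and 9 reads in newborn 1 to 3 and 8, 4, 3, 47, 0, 17 and 0 in old 1 to 7, with mean shares in the other animals of 0.349% in newborn and 0.248% in old.

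On the old side the junction furthest from 1 was an intronic circle, chr4:43067753-43067936 (mmu_circ_013955, plus strand), with 251 reads in the old library and none listed in the newborn library. It had 112 and 45 reads in newborn 2 and 3, 0 in newborn 1, and 78, 0, 7, 44, 0, 0 and 0 reads in old 1 to 7, so that the same-age old library did not list it either. The single-exon circle chr2:20044064-20046839 (mmu_circ_010992) had 157 reads in the old library, 3, 1 and 1 reads in newborn 1 to 3 and 6, 23, 0, 0, 0, 0 and 4 in old 1 to 7. The circle chr15:105230912-105236113 (mmu_circ_007062) had 73 reads in the old library, 18, 27 and 8 in newborn 1 to 3 and 0, 0, 0, 17, 4, 26 and 3 in old 1 to 7. A pair of circles on chromosome 12 shared their start and went opposite ways in the in-depth pair, but not by age in the other libraries. The circle chr12:64893832-64900252 (mmu_circ_004743) had 90 reads in the in-depth newborn library and none listed in the in-depth old library. It had 11, 0 and 0 reads in newborn 1 to 3 and 0, 0, 7, 0, 0, 54 and 0 in old 1 to 7. Conversely, chr12:64893832-64898485 (mmu_circ_004742) had 102 reads in the in-depth old library and none listed in the in-depth newborn library. It had 0, 41 and 0 reads in newborn 1 to 3 and 30, 11, 0, 47, 10, 0 and 0 in old 1 to 7. Both have 3 exons and a spliced length of 187 nt.

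Further on the old side, chr15:2445096-2446531 had 153 reads in the old library, 18 in newborn 3 and 22 and 15 in old 1 and old 2, and chr12:74076555-74077254 had 115 reads, 30 in newborn 1 and 62 in old 7, with none listed in the other newborn and old libraries of about 20M reads. The circle chr5:320738-323521 had 91 reads in the old library, 7 in newborn 2 and 8 in old 2, and was listed in no other newborn or old library. Its log2 fold change in the other animals was 4.13 ± 1.37, the opposite direction (adjusted p = 0.376, edgeR). On the newborn side chr9:31574105-31588330 and chr9:31574105-31650991 had 75 and 70 reads. Newborn 1 listed them with 7 and 8 reads, and old 1 and old 2 listed them too, with 8 and 8 reads for the first and 3 and 6 for the second. By contrast chr7:164254945-164262737 and chr7:164261344-164283671, with 106 and 82 reads, were listed in newborn 1, with 11 and 16 reads, and in no old library.

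The other animals of the series give the same measure in samples that the in-depth pair did not use. Newborn 1 and old 2 were left out of this. On junctions listed by both, their counts and those of the in-depth library of the same age differed by less than the sampling noise. A chi-square test of such junctions with 50 or more reads over the pair gave 0.911 per degree of freedom for the newborn pair. It gave 0.695 for the old pair, against 1.28 or more for the other 46 pairings. Junctions missing from either library of a pair, described above, lie outside this test. The sources differ on whether newborn 1 and old 2 are the samples sequenced in depth, so they were not counted as separate animals. The comparison was of newborn 2 and 3 with the 6 remaining old libraries by mean share. Of the 15 newborn-higher junctions listed in both in-depth libraries, 13 were higher in the newborn and 1 in the old animals, and 1 had no reads. Of the 43 old-higher junctions listed in both, 31 were higher in the old and 8 in the newborn animals, and 4 had no reads. For junctions listed in only 1 in-depth library the split was 27 newborn to 25 old for the 77 newborn-higher junctions, and 18 newborn to 21 old for the 60 old-higher junctions. Over all 1307 junctions, 595 were higher in the newborn and 575 in the old animals. The newborn side holds 2 libraries and the old side 6, so a junction with few reads had more chances to appear on the old side.

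**Figure D3:**
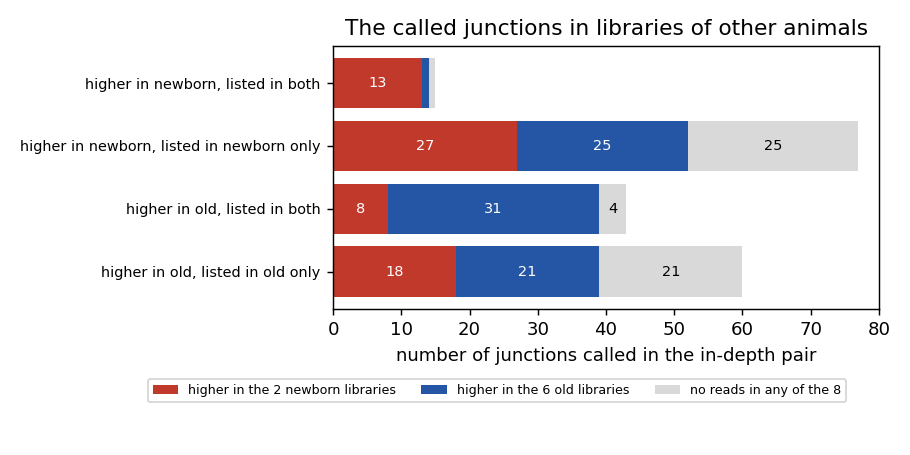
Number of junctions (x axis) called in the in-depth pair, split by direction and by listing (rows), and coloured by which group of the other animals, newborn 2 and 3 or the 6 old libraries other than old 2, had the higher mean share. Of the junctions listed in both in-depth libraries 13 of 15 and 31 of 43 kept their direction, while those listed in 1 library split into 27 and 25, and 18 and 21.

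A test over replicates was possible only in these libraries. Counts were fitted with the quasi-likelihood test of edgeR over the 22 libraries other than newborn 1 and old 2, with the juvenile and middle-aged groups in the same fit. Of 1373 junctions tested, 0 were higher and 1 (0.0728%) was lower in newborn than in old muscle at an adjusted p under 0.05, and 110 (8.01%) had an unadjusted p under 0.05. DESeq2 called none, with 18 junctions at an unadjusted p under 0.05. The 1373 included 895 of the 1307 junctions, among them 13 of the 15 newborn-higher and 31 of the 43 old-higher junctions listed in both libraries. All 13 had estimates above 0, with a median log2 fold change of 1.47, and 26 of the 31 had estimates below 0, with a median of -2.26, but 0 of these 44 passed the adjusted threshold and 8 had an unadjusted p under 0.05. For MYL2 the log2 fold change of newborn over old was 2.01 ± 1.17 (SE, adjusted p = 0.564, edgeR), and for chr4:53822249-53875750 it was 1.47 ± 0.78 (adjusted p = 0.560, edgeR). For chr9:69124976-69125878 it was -2.70 ± 1.11 (adjusted p = 0.560, edgeR). The standard errors had a median of 1.35 over all junctions tested, so that 2 newborn libraries left wide errors on each estimate.

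The one junction that passed was chr15:60489616-60491585 (mmu_circ_007566, 1 exon, 1970 nt, plus strand), with a log2 fold change of -6.96 ± 1.60 (adjusted p = 0.0190, edgeR). It had 0 reads in newborn 2 and 3 and 20, 8, 1, 41, 10 and 7 reads in old 1, 3, 4, 5, 6 and 7, so that every old library listed it. In the in-depth pair the same junction had 48 reads in the newborn and 72 in the old library, an old to newborn ratio of 2.59 (1.77 to 3.81), which was higher in the old library but not past 2-fold over its whole interval. The in-depth newborn library and newborn 1, with 6 reads, thus listed a junction that the other newborn animals did not. The call was lost with newborn 1 and old 2 included, where the log2 fold change was -3.20 (adjusted p = 0.112, edgeR). It was also lost with TMM normalization (adjusted p = 0.0778), with DESeq2 (0.695) and without old 5 (0.0712), with log2 fold changes of -6.88, -6.35 and -6.52. Without newborn 2 or newborn 3 the adjusted p was 0.592 or 0.622 with log2 fold changes of -6.89 and -6.98, and there 1 newborn library was left, whose spread was assumed to be that of the other groups.

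The densest group of newborn-higher junctions lay on the plus strand of chromosome 7, where 52 junctions of the series fell between positions 164239377 and 164283671. The locus was picked after its values were seen, as the one with the most called junctions. All 8 of its junctions with 10 or more reads were called higher in the newborn library, where they had 18 to 106 reads, and none of its junctions was listed in the old library. The one with the most reads, chr7:164254945-164262737, joins 7 exons and had 106 reads in the in-depth newborn library and 11, 0 and 12 in newborn 1 to 3. Over the locus the in-depth newborn library held 527 reads on 47 junctions, or 0.868% of its junction reads (Wilson 95% interval 0.797% to 0.945%), and the in-depth old library 0, which allows up to 0.00852%. Newborn 1, 2 and 3 held 65, 9 and 53 reads, or 1.05%, 0.114% and 1.81%. None of the 21 juvenile, middle-aged and old libraries of about 20M reads listed any of these junctions, at limits of 0.0259% to 0.365%. The share of newborn 2 lay under the limits of several of these, so that a level like that of newborn 2 was not detectable there. The intervals of the newborn libraries, 0.823% to 1.33%, 0.0598% to 0.216% and 1.38% to 2.36%, did not overlap with each other. Each newborn library gave an assembled transcript as the host, and whether transcription of the locus or its assembly was missing elsewhere was not tested. With all junctions of 10 or more reads in total tested, edgeR called 2 junctions of the locus higher in newborn than old muscle. They were chr7:164254945-164262737 and chr7:164257962-164262737 (adjusted p = 0.00572 for both, edgeR), which the minimum used otherwise had left out. In that fit all their reads came from newborn 3, with 12 each, and newborn 2, with 0 and 1. Both reached the minimum through these reads alone, so the calls rest almost wholly on 1 newborn library and are no separate support for the locus.

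**Figure D4:**
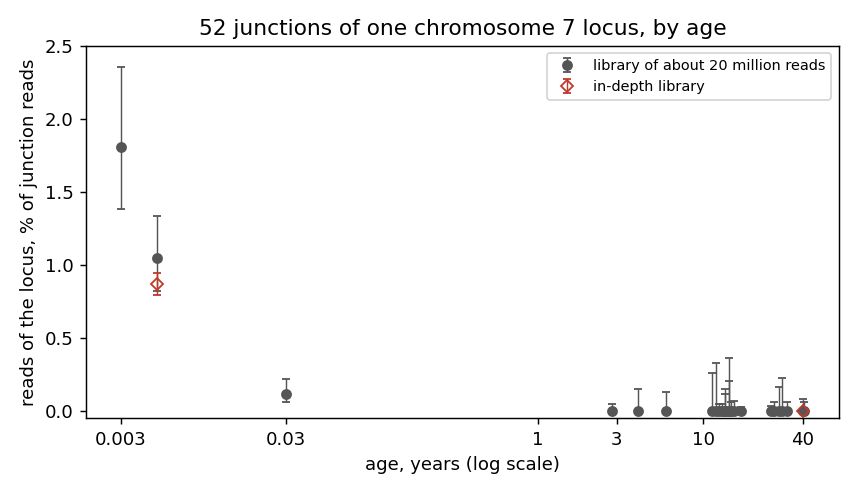
Share of junction reads (percent, y axis) on the 52 junctions of the chromosome 7 locus against the age of the animal in years (x axis, log scale). Points are libraries, filled for about 20M reads and open diamonds for the in-depth pair, and bars are 95% Wilson intervals or, where no read was listed, reach up to the share of 3 reads. The 3 newborn libraries of about 20M reads and the in-depth newborn library lie at 0.114% to 1.81%, and all others are at 0.

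Host transcripts were compared next, with reads summed over the isoform that each junction was assigned to. Of 1815 isoforms with 10 or more reads, 570 (31.4%) were higher in the newborn and 498 (27.4%) in the old library, but only 550 isoform names occurred in both libraries, and of those 18 (3.27%) and 32 (5.82%) were called. Hosts with Ensembl names gave 157 and 134, and 15 and 21 where listed in both. Host names often differed for one junction: of the 3899 junctions found in both libraries, 2340 carried different host names. Where both libraries gave an assembled transcript the name matched for 655 of 1867, and where both gave an Ensembl transcript for 904 of 1007, and the other 1025 had one of each. The isoform with the most newborn reads, ENSMMUT00000017929, had 1012 reads against 0, while the old library assigned most of the junctions of that host compared here to an assembled transcript. Likewise PREDICTED.278444.1 had 892 reads in the newborn library only and ENSMMUT00000011280 had 647 in the old library only, and both were the host given to one shared circle, chr2:102990361-103021852, which had 243 and 215 reads. For such hosts the libraries differed in the name given, and their counts by name were not used further.

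Summing overlapping junctions of one strand into loci, without names, avoids this. Across the 22 libraries of about 20M reads, edgeR called 0 of 1262 loci higher and 1 (0.0792%) lower in newborn muscle, the same chromosome 15 circle, with 116 (9.19%) at an unadjusted p under 0.05. In the in-depth pair, of 1368 loci with 10 or more reads, 69 (5.04%) were higher in the newborn library, 25 of them with reads in both, and 82 (5.99%) were higher in the old library, 49 of them with reads in both. In the other animals, 34 of the 69 were higher in newborn and 16 in old muscle, and 19 had no reads. Of the 82, 49 were higher in old and 17 in newborn muscle, and 16 had no reads. Over all 1368 loci, 623 were higher in newborn and 644 in old muscle. Examples went both ways. The locus chr9:31567255-31693934 had 176 reads in the newborn and 3 in the old in-depth library, a ratio of 34.0 (11.5 to 167), yet 17 reads in newborn 1 and 14 in old 2, 0 in newborn 2 and 3, and a log2 fold change of -5.43 ± 1.68 in the other animals (adjusted p = 0.276, edgeR), where newborn was the lower side. For the chromosome 4 locus the log2 fold change in the other animals was 1.20 ± 0.67 (adjusted p = 0.540, edgeR), and for the chromosome 6 locus it was -0.76 ± 0.82 (adjusted p = 0.847, edgeR).

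By kind of circRNA, the intronic circles stood out in the in-depth pair. Of the 33 compared, 24 had the higher share in the old library, 3 in the newborn library, 5 were listed in the old library only and 1 in the newborn library only. The 27 listed in both had a median newborn to old ratio of 0.369, with quartiles of 0.216 and 0.529, against 1.18 for the exonic junctions. In all, 11 of the 33 (33.3%) were called higher in the old library and 0 in the newborn library. Besides chr4:43067753-43067936 and the STAC3 circle, these included mmu_circ_006990 (chr14:9702546-9702752), with 19 reads in the newborn and 95 in the old library, an old to newborn ratio of 8.62 (5.23 to 14.9), and mmu_circ_006322 (chr14:1750829-1750927), with 15 against 48 reads, a ratio of 5.52 (3.04 to 10.6). One that was listed in the old library only, chr12:83273192-83273372, had 14 reads there, 5 in old 1 and 1 in newborn 2. In the other animals, 25 of the 33 were higher in old and 6 in newborn muscle, and 2 had no reads, but their summed shares were close, 2.63% in the newborn and 2.80% in the old libraries. For mmu_circ_006322 the newborn libraries had 1, 0 and 1 reads and old 1 to 7 had 14, 3, 6, 1, 2, 6 and 4, with a log2 fold change of -3.50 ± 1.40 (adjusted p = 0.560, edgeR). For mmu_circ_006990 the newborn libraries had 1, 4 and 1 reads and the old libraries 5, 10, 3, 0, 4, 3 and 0, with a log2 fold change of -0.44 ± 1.06 (adjusted p = 0.967, edgeR), where each of the other old animals stayed below the 0.270% of the in-depth old library.

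As a class, ciRNAs took 3.16% of junction reads in the in-depth newborn library and 6.65% in the in-depth old library, and 3.24% and 6.73% in newborn 1 and old 2. In the other animals the share was 3.95% and 5.29% in newborn 3 and 2 and ranged from 3.94% to 9.05% in the 6 old libraries, so that the groups overlapped. The means were 4.62% ± 0.945 (SD, n = 2) and 5.79% ± 1.72 (SD, n = 6), with an exact two-sided permutation p = 0.500 where 0.0714 is the smallest possible. A high ciRNA share was not particular to old animals. Juvenile 1 to 3 had 7.26%, 8.45% and 6.78%, each above the in-depth old library, and the middle-aged libraries ranged from 3.74% to 23.5%.

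**Figure D5:**
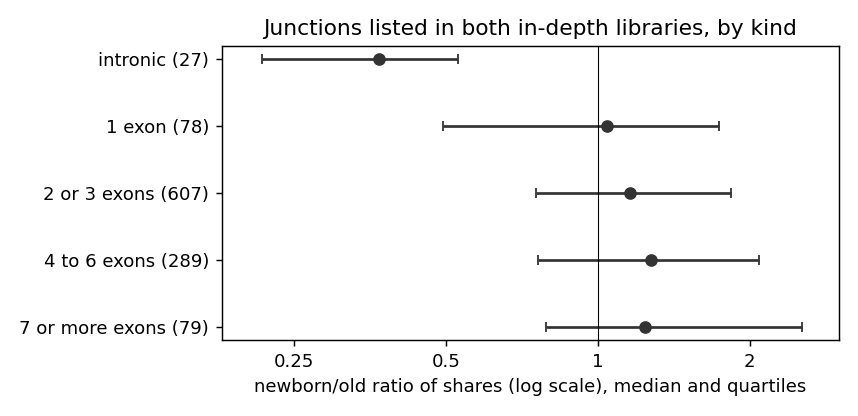
Newborn to old ratio of shares (x axis, log scale) of the junctions listed in both in-depth libraries, by kind of circRNA (rows, number of junctions in brackets). Points are medians and bars run from the lower to the upper quartile. Intronic circles have a median of 0.369, and the exonic classes have medians of 1.04 to 1.28.

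Exonic circles differed less by their number of exons. Circles of 1 exon had a median newborn to old ratio of 1.04 (78 junctions listed in both), those of 2 or 3 exons 1.16 (607), those of 4 to 6 exons 1.28 (289) and those of 7 or more 1.24 (79), with quartiles that overlapped widely. Of the 95 circles of 1 exon, however, 17 (17.9%) were called higher in the old library and 3 (3.16%) in the newborn library. Over all 1307 junctions these shares were 7.88% and 7.04%. In the other animals 50 circles of 1 exon were higher in old and 39 in newborn muscle. Circles of 7 or more exons also had more calls on the old side, 15 of 102 (14.7%) against 8 (7.84%). In the other animals 33 of these were higher in old and 45 in newborn muscle. The called exonic junctions of both directions had a median of 3 exons. Median spliced lengths, intronic circles included, were 395 nt on the newborn and 420 nt on the old side, against 359 nt for junctions not called. The read-weighted mean number of exons was 3.61 in the in-depth newborn and 3.53 in the in-depth old library. In the other animals it was 3.60 ± 0.313 (SD, n = 2) and 3.40 ± 0.244 (SD, n = 6), a difference that did not pass an exact permutation test (p = 0.429).

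For the newborn-higher junctions not listed in the old library, the splice sites themselves could be looked for in other circles of that library. Of the 77, all exonic, 38 had neither site in use in another circRNA of the old library, 20 had 1 and 19 had both. Of the 55 exonic old-higher junctions not listed in the newborn library, 33 had neither site in use there, 13 had 1 and 9 had both. Of the 77, 34 were listed in newborn 1 and 12 in old 2, 61 in at least 1 of the 24 libraries and 16 in none. Of the 60 old-only junctions, 24 were listed in old 2 and 10 in newborn 1, 48 in at least 1 and 12 in none. These counts were made for called junctions and not for all 1307, so whether the shares are unusual cannot be told. The 77 include the 8 called junctions of the chromosome 7 locus, which are not separate cases.

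Gene symbols could be attached to 44 of the 1307 junctions, from 27 genes. Of these, 41 were listed in both libraries, 28 with the higher share in the newborn and 13 in the old library, with a median ratio of 1.18 that was close to the 1.16 of all junctions. Called higher in the newborn library were 2, those of MYL2 and LARP4, and 3 were called in the old library, the STAC3 intron among them. Of the gene lists set up for the comparison, that of widely reported circRNA hosts had 1 gene with an identifier, RERE, a nuclear co-regulator of transcription, whose 2 junctions had 72 against 27 and 36 against 11 reads and were not called. The lists of perinatal and growth, calcium handling and membrane, and extracellular matrix genes had none with an identifier, nor did the markers of muscle fibres, fibroblasts, endothelium, satellite cells, fat and blood. The labelled tissue could therefore not be checked against those markers, although the hosts that could be named included MYL2 and STAC3, which are genes of striated muscle.

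The most abundant circRNAs were mostly alike in the pair. The first by mean share, mmu_circ_010973 (chr2:189036369-189048246, 3 exons), had 623 reads in the newborn and 257 in the old library, 1.03% and 0.730%, a ratio of 1.41 (1.21 to 1.63). The following ones, mmu_circ_019349 with 435 and 327 reads (0.771, 0.667 to 0.893), mmu_circ_016141 with 461 and 280 reads (0.955, 0.821 to 1.11) and mmu_circ_015464 with 513 and 216 reads (1.38, 1.17 to 1.62), also stayed within 2-fold. Apart from chr19:43465501-43466048, the only one of the 10 that was called was mmu_circ_011853 (chr20:29319558-29319983), with 201 against 281 reads and an old to newborn ratio of 2.41 (2.004 to 2.90). Its call was lost with DESeq2 size factors (lower bound 1.74) and with totals that left out the 10 most abundant junctions (1.99). It had 28, 32 and 9 reads in newborn 1 to 3 and 49, 0, 23, 26, 40, 53 and 7 reads in old 1 to 7, with a log2 fold change of -1.13 ± 0.85 in the other animals (adjusted p = 0.676, edgeR).

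The spread of reads over junctions was also alike. The 10 most abundant junctions of each library took 7.41% of the reads in the in-depth newborn and 6.93% in the in-depth old library, against 9.78% ± 1.21 (SD, n = 2) in newborn 2 and 3 and 10.8% ± 2.96 (SD, n = 6) in the old libraries (exact permutation p = 0.857). The median spliced length weighted by reads was 374 nt and 366 nt in the in-depth pair, against 377 nt ± 41.0 (SD, n = 2) and 360.2 nt ± 47.8 (SD, n = 6) in the other animals (exact permutation p = 0.714). Reduced to 1317 reads, the smallest total among them, libraries held 1.38 and 1.41 reads per distinct junction in the in-depth newborn and old, and 1.52 ± 0.0435 (SD, n = 2) and 1.54 ± 0.0942 (SD, n = 6) in the other newborn and old animals (exact permutation p = 1.00). In all 5 such values were compared, the ciRNA share and the exon number included, and each had a Benjamini-Hochberg adjusted p of 1.00 over the 5.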

How the data were processed

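Counts of reads on back-splice junctions were deposited by the authors, 1 list per library. Per the labels and the study's methods, RNase R treated total RNA was sequenced paired-end, adapters were trimmed with cutadapt, reads were aligned to rheMac2 with TopHat2 2.0.14 and Bowtie2 2.2.4, transcripts were assembled with Cufflinks 2.2.1, and junctions were called with CIRCexplorer, whose filters are not given in the sources used here. Each list holds called junctions only. From these counts, reads were summed per junction, per host isoform and per group of overlapping junctions, and divided by the library's junction reads. Junctions with 10 or more reads in either in-depth library were compared by exact (Clopper-Pearson) 95% intervals of the ratio. These intervals and the floor of 3 reads cover counting error only, since reads carried no molecular identifiers. No p-value was computed with 1 library per age.

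The libraries of about 20M reads (822 to 11561 junction reads) were tested with edgeR 4.0.16 (quasi-likelihood, Benjamini-Hochberg adjustment, 2 or more reads in 3 or more libraries, total junction reads as library size) and DESeq2 1.42.0 in R 4.3.3, and single values with exact two-sided permutation tests in scipy 1.17.1. The interval and edgeR steps were tested on simulated data. The labels give 1 sample per monkey. Named junctions were the 10 with the most extreme bound of the ratio on each side, the 10 most abundant, the 3 most extreme called intronic ones on each side and those with a gene symbol. Junctions called in both libraries, the chromosome 4 and chromosome 7 loci, other loci and junctions called by edgeR were added after their values were seen. The members and lists were chosen with earlier results of these data known. Symbols came by transcript identifier from annotation columns of the study's supplementary list, of which only a part was used, and mmu_circ identifiers by position from the same list, for 44 and 494 of the 1307 junctions. Other junctions are given by position in rheMac2, and their sequence was not analysed here. Some results for named genes are not reported here.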

Additional observations from a re-analysis of the deposited data

Results flagged for a closer look

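In old 7, the 10 most abundant junctions held 16.6% of junction reads, and the next highest of the 7 old libraries held 10.7%. In the same library the number of reads per distinct junction at equal depth was 1.72, and the next highest was 1.54. Both values stood apart from the other old libraries by the gap to the nearest library relative to the range. Old 7 had the fewest junction reads of the old libraries, 1317. Of these reads, 62 lay on chr12:74076555-74077254, which no other old library of about 20M reads listed. The number of reads per distinct junction was taken with each old library reduced to 1317 reads, whereas the share of the 10 most abundant junctions was not. The part of depth in that share, and of chr12:74076555-74077254 in both values, was not tested. In all 13 group values were examined in this way, and chance sets apart about 1 group in 20.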

How the results depend on the processing

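In the in-depth pair the counts of called junctions followed the size of change required. With the interval past 1-fold, 291 junctions were higher in the newborn and 217 in the old library, and past 4-fold 37 and 61. With a minimum of 20 reads the counts were 62 and 41, with an equal minimum share 67 and 103, and with each exon structure counted on its own 161 and 151. DESeq2 size factors gave 117 and 93. Restricted to junctions listed in both libraries, a choice made after seeing the data, the counts were 15 and 43. Host isoforms by name gave 883 newborn-higher past 1-fold and 290 past 4-fold, 233 old-higher with a minimum of 20 reads, 18 and 32 when listed in both libraries, and 69 and 82 when reads were summed over overlapping junctions, the last pair of settings again chosen after seeing the data. In the libraries of about 20M reads, 4 junctions were higher in newborn muscle when 10 reads in total sufficed to be tested. Of these, 2 lay in the chromosome 7 locus and had 12 reads each in newborn 3, and 0 and 1 in newborn 2. Another was chr19:43465501-43466048, with reads in newborn 2 only. The remaining junction, with 17 reads, was likewise listed in newborn 2 only among these libraries. Each of the 4 calls thus rested wholly or almost wholly on 1 newborn library. The count of lower junctions was 0 with newborn 1 and old 2 included, with TMM and with DESeq2, and 0 to 1 when 1 library was left out. Leaving out 1 library moved the newborn minus old difference in mean exon number from -0.0211 (without newborn 3) to 0.422, in median length from -12.2 (without newborn 3) to 45.8 nt, in the share of the 10 most abundant junctions from -1.91 to 0.103 percentage points (without old 7), in reads per distinct junction from -0.0463 to 0.0202 (without old 7, and 0.0151 without newborn 2), and in the ciRNA share from -1.84 to -0.499 percentage points. The signs of the first 4 turned. The causes were not tested. Of the values for named junctions under the alternatives, 408 kept direction and side of the threshold and 20 kept direction only. No paired analysis was possible because replicate numbers only name the samples.

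Depth limits the comparison: 3 reads are 0.00494% of the newborn and 0.00852% of the old in-depth library, 1 animal stands for each age, and a 0 does not separate an absent junction from one that was not called.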
